A study of Mus musculus with 48 samples.

Results

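The kidney response to 400 mg/kg vancomycin was compared between the intraperitoneal (ip) and the intravenous (iv) route. For each gene the ip effect was the level at 400 mg/kg ip minus that in saline ip, the iv effect was the level at 400 mg/kg iv minus that in saline iv, and the route difference was the ip effect minus the iv effect, all on the log2 scale. A positive route difference therefore marks a gene that rose more, or fell less, by the ip route. The comparison rests on 24 of the 48 arrays of the series, with 6 mice in each of the groups 400 mg/kg VCM ip, saline ip, 400 mg/kg VCM iv and saline iv.

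Vancomycin (VCM) is a glycopeptide antibiotic that is filtered by the glomerulus and taken up by cells of the proximal tubule, where it can cause injury. An iv dose enters the blood at once, whereas an ip dose is absorbed from the peritoneal cavity. Immediate early genes such as Fos are switched on within minutes of a stimulus and need no new protein to do so. Injured tubules lose the transporters and enzymes of the mature proximal tubule and draw in monocytes and macrophages.

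The animals were female BALB/c mice that received 7 daily injections of saline or of 50, 200 or 400 mg/kg vancomycin by 1 of the routes and were killed on day 8. RNA came from a piece of kidney tissue, and each mouse had its own single-colour Affymetrix array. No group was without injection, so a level in saline holds any effect of the injection itself, and all mice are of 1 strain and sex. The mice carry separate numbers in the labels and were treated as independent.

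The ip and iv arrays stood apart before any gene was considered. The 90th percentile of an array (log2 intensity) lay between 9.07 and 9.23 in the 24 ip arrays and between 8.28 and 8.75 in the 24 iv arrays, and the median gene was 0.45 higher by ip than by iv at 400 mg/kg and 0.41 higher in saline. Of 5748 genes tested by limma, 61.3% differed between the routes at 400 mg/kg (57.4% higher by ip and 3.88% lower) and 57.7% in saline (55.1% higher and 2.57% lower). The interquartile range of an array was 4.53 to 4.75 at 400 mg/kg ip, 4.35 to 4.48 in saline ip, 3.83 to 4.09 at 400 mg/kg iv and 3.39 to 4.04 in saline iv, so the spread of the values moved with both route and dose. The route difference subtracts 1 of the offsets from the other, and its median over all genes was 0.01. Probe sets are not listed in step with their values in the table used here, so names were given by position to 3 stretches that hold 24.4% of the probe sets. Of the 7859 genes named in this way, 5748 passed a filter on low values and were tested. Umod, which encodes uromodulin, the defining protein of the thick ascending limb of the kidney, had medians (log2 intensity) of 13.88 at 400 mg/kg ip, 14.13 in saline ip, 12.97 at 400 mg/kg iv and 13.25 in saline iv, and its route difference was -0.01 ± 0.11 (SE, limma adjusted p = 0.98).

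The 400 mg/kg dose moved many genes by both routes. By limma with Benjamini-Hochberg adjustment over 5748 genes, 3526 genes (61.3%) passed 0.05 by ip, with 36.3% higher and 25.1% lower, and 2859 (49.7%) passed by iv, with 30.7% higher and 19.0% lower. Of the 2476 that passed by both, 2464 had the same sign. The ip effects were the larger on average, with a root mean square of 1.16 by ip and 0.89 by iv, a ratio of 1.30. That ratio was 1.25 after quantile normalization and 1.15 when all arrays were given a common median and interquartile range.

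The route difference itself passed 0.05 in 248 of the 5748 genes (4.31%), of which 169 were higher by ip (2.94%) and 79 lower (1.37%). At an unadjusted p under 0.05 there were 1130 such genes. The balance of the directions depended on the scaling of the arrays: quantile normalization gave 103 higher and 110 lower, and a common median and interquartile range gave 63 and 63 and moved the median of all genes to -0.13. Among the 169 higher genes, 130 rose by both routes and rose more by ip, 35 had effects of opposite sign and 4 fell by both and fell less by ip. Among the 79 lower genes, 63 fell by both routes and fell more by ip, 14 had effects of opposite sign and 2 rose by both and rose less by ip. The difference exceeded 1 log2 unit in 118 of the higher and 17 of the lower genes.

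**Figure D1:**
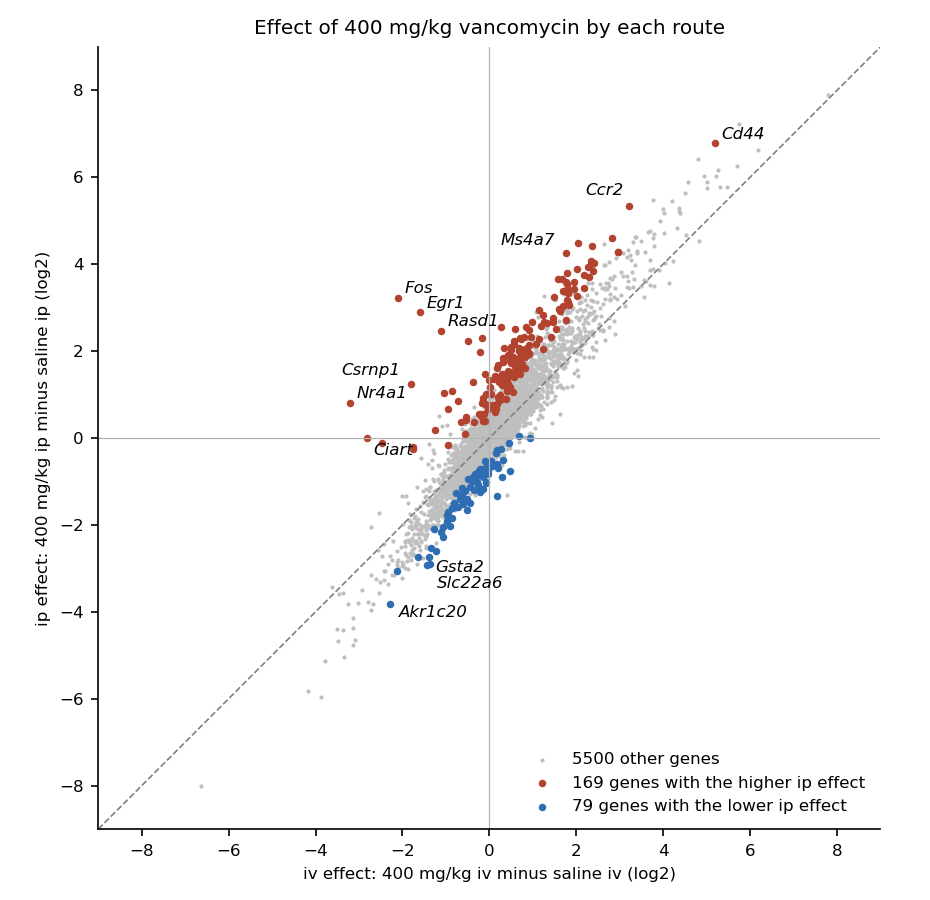
Effect of 400 mg/kg vancomycin by the ip route (vertical axis, log2) against the effect by the iv route (horizontal axis, log2), 1 point per gene for 5748 genes, with the dashed line at equal effects. The 169 genes with the higher ip effect lie above the line and the 79 with the lower ip effect below it, and Fos, Egr1, Rasd1, Csrnp1 and Nr4a1 lie far from the rest, with effects above 0 by ip and below 0 by iv.

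Among the higher genes, some had saline groups that stood apart and 400 mg/kg groups that overlapped, and others had the reverse. The comparison was repeated with the 50 mg/kg groups in place of saline, which shares the 400 mg/kg arrays but none of the control arrays. That repeat passed 0.05 in 160 genes (2.78%), 98 higher (1.70%) and 62 lower (1.08%), and of the genes called against saline 81 of 169 higher and 39 of 79 lower passed in the same direction.

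Immediate early genes had a median difference between ip and iv of 0.59 at 400 mg/kg and of -0.31 in saline, against 0.45 and 0.41 over all genes. Of 21 tested members of this list 12 had the higher ip effect and 0 the lower, against 2.94% of all genes, all 21 differences were above 0 and the median was 1.36, against 0.01 over all genes. The 12 were Fos, Egr1, Nr4a1, Rasd1, Csrnp1, Jun, Plk3 and Plk2, with Klf6 (1.84), Klf4 (1.69), Maff (1.36) and Srf (0.98), the last 4 of which were picked out after their values were seen. With 50 mg/kg in place of saline 0 of the 21 passed by limma (4 at an unadjusted p under 0.05), against 2.78% of all genes, and the median was 0.47.

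Fos encodes a subunit of the AP-1 transcription factor and had the largest route difference of all 5748 genes. Its lowest, median and highest levels (log2 intensity) were 5.73, 7.34 and 8.00 at 400 mg/kg ip, 2.76, 3.74 and 4.72 in saline ip, 6.21, 7.62 and 11.49 at 400 mg/kg iv, and 9.16, 10.36 and 10.59 in saline iv. The saline groups did not overlap, with every iv mouse above every ip mouse, while the 400 mg/kg groups did. Fos rose by 3.23 by ip (limma adjusted p = 1.4e-04) and fell by 2.10 by iv (adjusted p = 0.014), a route difference of 5.34 ± 1.02 (SE, adjusted p = 8.0e-04). Against 50 mg/kg the difference was 1.62 (adjusted p = 0.42).

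Nr4a1, an orphan nuclear receptor induced by many stimuli, ran from 5.92 to 7.25 at 400 mg/kg ip with a median of 7.08, and from 5.76 to 6.29 in saline ip with a median of 5.92. By the iv route it ran from 5.71 to 9.41 at 400 mg/kg with a median of 6.30, and from 9.71 to 10.53 in saline with a median of 10.15. Saline iv alone stood apart, above every mouse of the other 3 groups. The route difference of 4.03 ± 0.57 (SE, limma adjusted p = 9.4e-06) was -0.11 when set against 50 mg/kg (adjusted p = 0.95).

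Rasd1, a small Ras-like GTPase that glucocorticoids induce, had medians of 6.61 at 400 mg/kg ip, 4.10 in saline ip, 6.38 at 400 mg/kg iv and 7.64 in saline iv. Its saline ranges were 3.85 to 4.27 by ip and 7.16 to 8.07 by iv, and the 400 mg/kg ranges were 5.87 to 7.35 by ip and 5.89 to 7.78 by iv. The routes were thus 3.56 log2 units apart in saline, with ip the lower, and 0.02 apart at 400 mg/kg. The route difference was 3.58 ± 0.42 (SE, limma adjusted p = 1.8e-07). Csrnp1, a nuclear factor of the early response, followed the same order, with medians of 6.03 at 400 mg/kg ip, 4.82 in saline ip, 5.78 at 400 mg/kg iv and 7.74 in saline iv, and a route difference of 3.05 ± 0.36 (adjusted p = 2.0e-07). Both calls held when each of the 24 mice was left out.

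Egr1, a zinc finger factor, had medians of 9.72 at 400 mg/kg ip, 6.33 in saline ip, 9.01 at 400 mg/kg iv and 10.91 in saline iv, with a route difference of 4.49 ± 0.80 (limma adjusted p = 4.5e-04). Jun, the partner of Fos in AP-1, had medians of 10.54, 8.53, 10.22 and 10.55 in the same order of groups, and its difference was 2.20 ± 0.43 (adjusted p = 9.7e-04). In both genes the saline groups did not overlap and the 400 mg/kg groups did. Plk3, a stress-responsive kinase, had an ip effect of -0.12 (limma adjusted p = 0.82) and fell by 2.47 by iv, and its route difference was 2.35 (adjusted p = 0.016). Plk2, a related kinase, overlapped in saline, with medians of 6.42 at 400 mg/kg ip, 5.03 in saline ip, 5.42 at 400 mg/kg iv and 5.37 in saline iv, and a difference of 1.56 (adjusted p = 0.017). In the table the values of Fos, of Egr1 and Nr4a1, and of Csrnp1 stand in separate stretches of the 3 that were named.

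**Figure D2:**
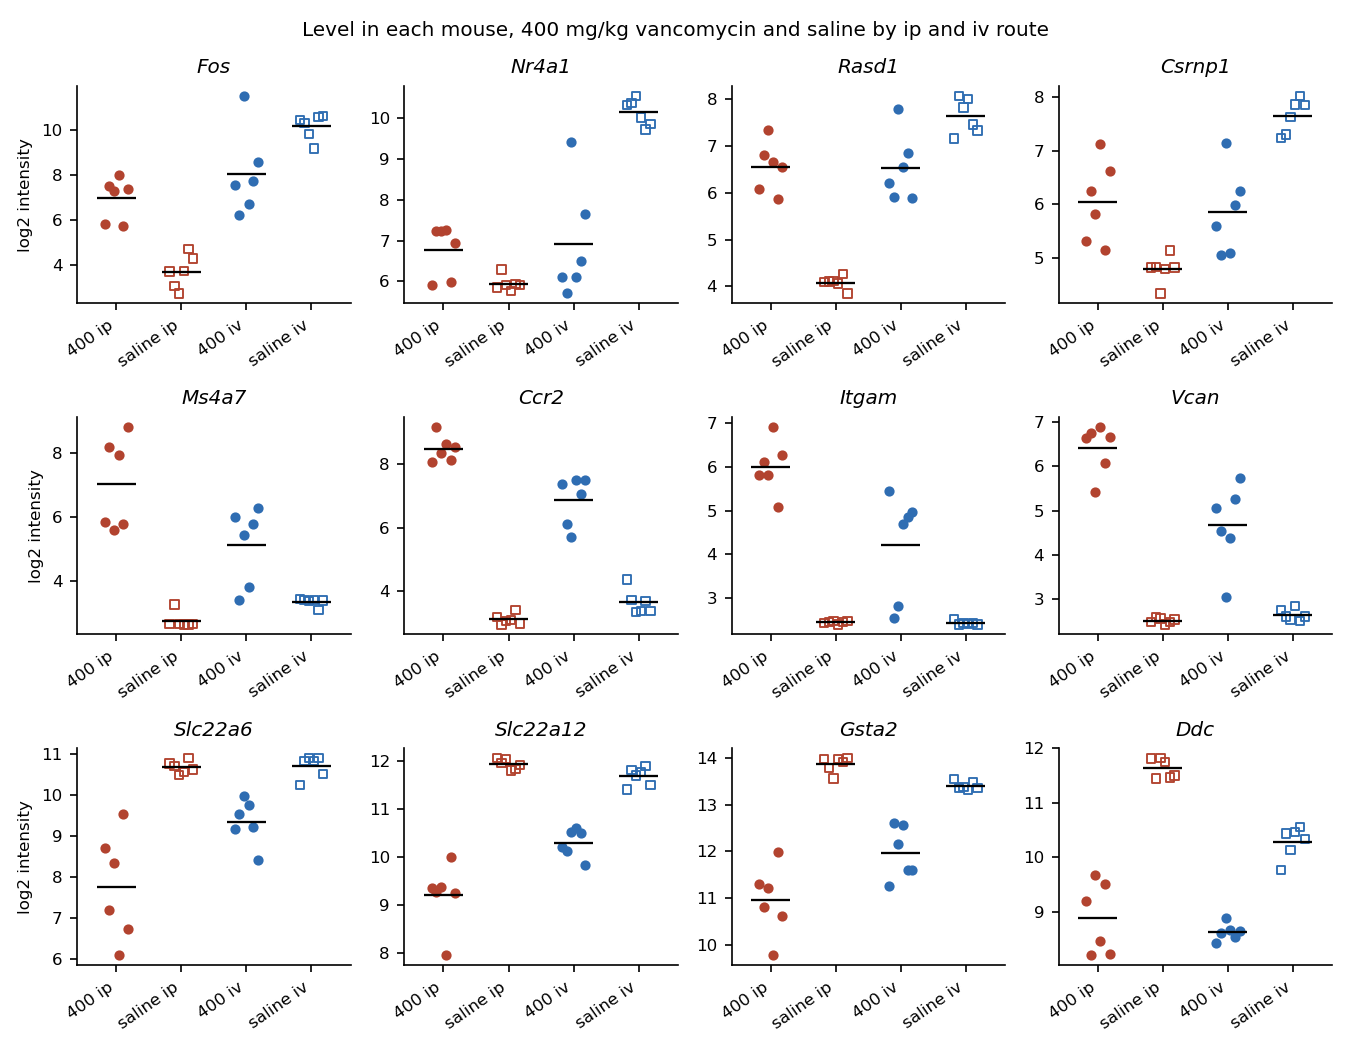
Level (log2 intensity) of 12 genes in each of 6 mice per group, with filled circles for 400 mg/kg vancomycin, open squares for saline, red for ip and blue for iv, and a bar at each group mean. In the top row saline iv lies above saline ip without overlap, in the middle row the saline groups lie low and the 400 mg/kg ip mice have the highest means, and in the bottom row the 400 mg/kg ip means lie under the saline ip means by 2.91 for Slc22a6, 2.73 for Slc22a12, 2.92 for Gsta2 and 2.74 for Ddc.

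Other early-response genes outside that list had the same layout. Cebpb, a leucine zipper factor of the acute phase response, had medians of 10.24 at 400 mg/kg ip, 7.20 in saline ip, 9.71 at 400 mg/kg iv and 9.57 in saline iv, and a route difference of 2.29 ± 0.39 (limma adjusted p = 1.8e-04). Ptgs2, the inducible cyclooxygenase of prostaglandin synthesis, had medians of 5.89, 3.03, 4.64 and 4.64 in that order and a difference of 2.45 ± 0.44 (adjusted p = 4.6e-04). Neither passed against 50 mg/kg (0.44 with adjusted p = 0.59 for Cebpb, and 1.15 with adjusted p = 0.16 for Ptgs2). The saline ip levels of Ptgs2, 2.92 to 3.13, lay under 3.47, the median of the whole table, so the size of its difference is approximate. Gem, a small GTPase, differed by 2.71 (adjusted p = 0.0042), but its saline groups overlapped.

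The 50 mg/kg groups showed where the saline iv mice stood. Mean Nr4a1 by ip was 5.95 in saline, 5.89 at 50, 5.68 at 200 and 6.76 at 400 mg/kg, and by iv it was 10.12, 5.94, 6.26 and 6.91 at the same doses. Mean Fos by ip was 3.72, 3.04, 2.80 and 6.96, and by iv 10.13, 5.73, 6.93 and 8.03. Saline iv was thus the highest group of all 8 for both genes. The route interaction at 50 mg/kg, which has the saline mice in common with the one at 400, passed in 11 genes (0.191%), all with the higher ip effect, and Nr4a1 (4.13), Csrnp1 (2.38), Rasd1 (2.51), Jun (1.92) and Cebpb (1.85) were among them.

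Clock genes drive daily rhythms in most tissues. In saline 5 of 20 tested members were higher and 4 lower by ip than by iv, against 55.1% and 2.57% of all genes. For the route difference at 400 mg/kg 4 had the higher ip effect (Ciart, Per3, Dbp and Wee1, the last with 0.68 and picked out after its value was seen) and 1 the lower (Arntl), against 2.94% and 1.37% of all genes, and the median was 0.56. Ciart, a repressor within the clock loop, had medians of 4.02 at 400 mg/kg ip, 3.95 in saline ip, 4.56 at 400 mg/kg iv and 7.27 in saline iv. The saline iv mice, at 7.07 to 8.03, lay above all 18 others of the comparison, and the route difference was 2.83 ± 0.52 (SE, limma adjusted p = 5.4e-04). Arntl, which encodes BMAL1 of the positive arm, ran the other way, with medians of 4.12 at 400 mg/kg ip, 4.83 in saline ip, 3.15 at 400 mg/kg iv and 2.90 in saline iv, and a difference of -1.19 ± 0.32 (adjusted p = 0.024). Dbp, an output gene of the clock, differed by 1.43 (adjusted p = 0.034) and Per3, a period gene of the negative arm, by 1.58 (adjusted p = 0.0017). The call on Dbp held in 16 and that on Arntl in 23 of 24 fits that left out 1 mouse, with adjusted p up to 0.069 and 0.054, both without saline ip mouse 61. Against 50 mg/kg 0 of 20 clock genes passed by limma (0 at an unadjusted p under 0.05) and the median was 0.05. The iv means of Arntl in saline and at 400 mg/kg lay under 3.47, the median of the whole table, under which a level was not told from background. The labels used here give no hour of injection or death, and its part in the saline differences of clock and early genes was not tested.

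In the 300 bases from 250 before to 50 after the start of a gene, as RefSeq gives them for GRCm38.p6, the sites that early-response factors are known to bind were looked for in the promoters of 11 of the 14 leading genes, those that the RefSeq table held. Both strands were searched for the cAMP response element TGACGTCA, the AP-1 site TGACTCA, the Fos serum response element and the CArG box, the last of which can overlap the element before it. Of the 11 genes 3 held a match in at least 1 of their promoters. Counted by promoter, 8.46% of all 32851 held a match. The 2 figures are not on the same footing, because some of the 11 genes have more than 1 listed promoter. Csrnp1 and Plk2, from the early list, are shown here with the matches in capitals and up to 20 bases on each side, the first from chr9:119983011-119983145 on the minus strand and the second from chr13:110394962-110395009 on the plus strand.
Csrnp1: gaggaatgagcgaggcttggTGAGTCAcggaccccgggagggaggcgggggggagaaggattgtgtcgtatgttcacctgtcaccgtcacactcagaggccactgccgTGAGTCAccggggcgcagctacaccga
Plk2: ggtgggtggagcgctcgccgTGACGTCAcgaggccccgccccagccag
The 2 AP-1 matches of Csrnp1 read TGAGTCA, the other strand of the site, and lie in 1 of its 4 listed promoters, with first bases at -102 and -14 from the start. AP-1 matches occur in 5.2% and cAMP response elements in 1.79% of all promoters, and the third gene, the schlafen gene Slfn4, held 1 AP-1 match. No match in the window of Fos or Nr4a1 says only that these letters are not there.

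Of 38 tested genes of monocytes, macrophages and other myeloid cells, 37 rose by ip and 36 by iv, against 36.3% and 30.7% of all genes. The route difference passed in 8 with the higher ip effect, against 2.94% of all genes, and in 0 with the lower, 37 differences were above 0 and the median was 0.98. After quantile normalization 4 passed with a median of 0.82, and under a common median and interquartile range 3 with a median of 0.46. With 50 mg/kg in place of saline 8 passed, all higher, against 1.70% of all genes, with a median of 1.06. The myeloid genes had a median difference between ip and iv of 1.05 at 400 mg/kg and 0.09 in saline. The 8 called against saline were Ms4a7, Ccr2, Pirb (2.08), Clec4a2 (1.79), Itgam, Lcp2, C1qb and Tlr7 (0.97), and Pirb, Clec4a2 and Tlr7 were picked out after their values were seen. In RNA of kidney tissue more cells of a type and more RNA per cell cannot be told apart.

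Ccr2 is the chemokine receptor through which inflammatory monocytes are recruited. Its levels were 8.06 to 9.16 at 400 mg/kg ip with a median of 8.43 and 2.97 to 3.43 in saline ip with a median of 3.10, and 5.72 to 7.50 at 400 mg/kg iv with a median of 7.21 and 3.35 to 4.38 in saline iv with a median of 3.55. All 6 ip mice at 400 mg/kg lay above all 6 iv mice, while the saline groups overlapped. The ip effect was 5.34 and the iv effect 3.22, a route difference of 2.12 ± 0.47 (SE, limma adjusted p = 0.0042). Against 50 mg/kg it was 2.07 (adjusted p = 0.0082). Of its other kept probe sets 1 gave 1.21 and 1 gave 0.58, neither past the threshold (adjusted p = 0.22 and 0.29).

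Ms4a7, a membrane protein of macrophages, reached 5.57, 6.87 and 8.80 (lowest, median and highest) at 400 mg/kg ip, against 2.64, 2.66 and 3.26 in saline ip. By iv it reached 3.41, 5.61 and 6.28 at 400 mg/kg, against 3.09, 3.39 and 3.44 in saline. The 400 mg/kg groups overlapped, and the route difference was 2.49 ± 0.54 (SE, limma adjusted p = 0.0039). Itgam, the integrin CD11b of myeloid cells, rose by 3.55 by ip and by 1.80 by iv, and at 400 mg/kg its ip mice ran from 5.08 to 6.92 and its iv mice from 2.55 to 5.46. Its route difference of 1.76 (adjusted p = 0.0039) did not pass after quantile normalization (1.25, adjusted p = 0.061), under a common interquartile range (1.34, adjusted p = 0.059), with only the 4 groups fitted (adjusted p = 0.083) or with the iv effect scaled (1.22, adjusted p = 0.21). C1qb, a chain of complement C1q made by macrophages, had medians of 11.96 at 400 mg/kg ip, 7.39 in saline ip, 9.79 at 400 mg/kg iv and 6.82 in saline iv. Its difference was 1.34 (adjusted p = 0.031, up to 0.081 without 400 mg/kg iv mouse 45), and a second probe set gave 1.06 (adjusted p = 0.22). Lcp2, an adaptor of immune receptor signalling, differed by 1.42 (adjusted p = 0.0042).

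When every iv effect was multiplied by 1.30, the ratio of root mean squares, so that the effects of both routes had the same root mean square, 0 of the 38 myeloid genes passed by limma (6 at an unadjusted p under 0.05) and their median was 0.20, and 8 of the 21 immediate early genes passed with a median of 1.06. The iv scaling left 53 calls in all. It lowers the difference of a gene that rose by iv and raises that of a gene that fell by iv. The median iv effect was 2.63 in the myeloid list and -0.10 in the immediate early list, so the counts of these lists are not on the same footing. Mean myeloid level over saline of the same route was 2.89 to 4.17 in the 400 mg/kg ip mice with a median of 3.52, and 1.53 to 3.10 in the 400 mg/kg iv mice with a median of 2.70. The groups overlapped, since ip mice 103 and 107 stood at 2.89 each and ip mouse 105 at 3.08, and iv mice 43, 47 and 48 at 3.01, 3.04 and 3.10. Below 3.47 the size of a rise is approximate. Of the 169 higher genes of the whole comparison 62 had both saline means under 3.47, and of the 79 lower genes 0 did.

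**Figure D3:**
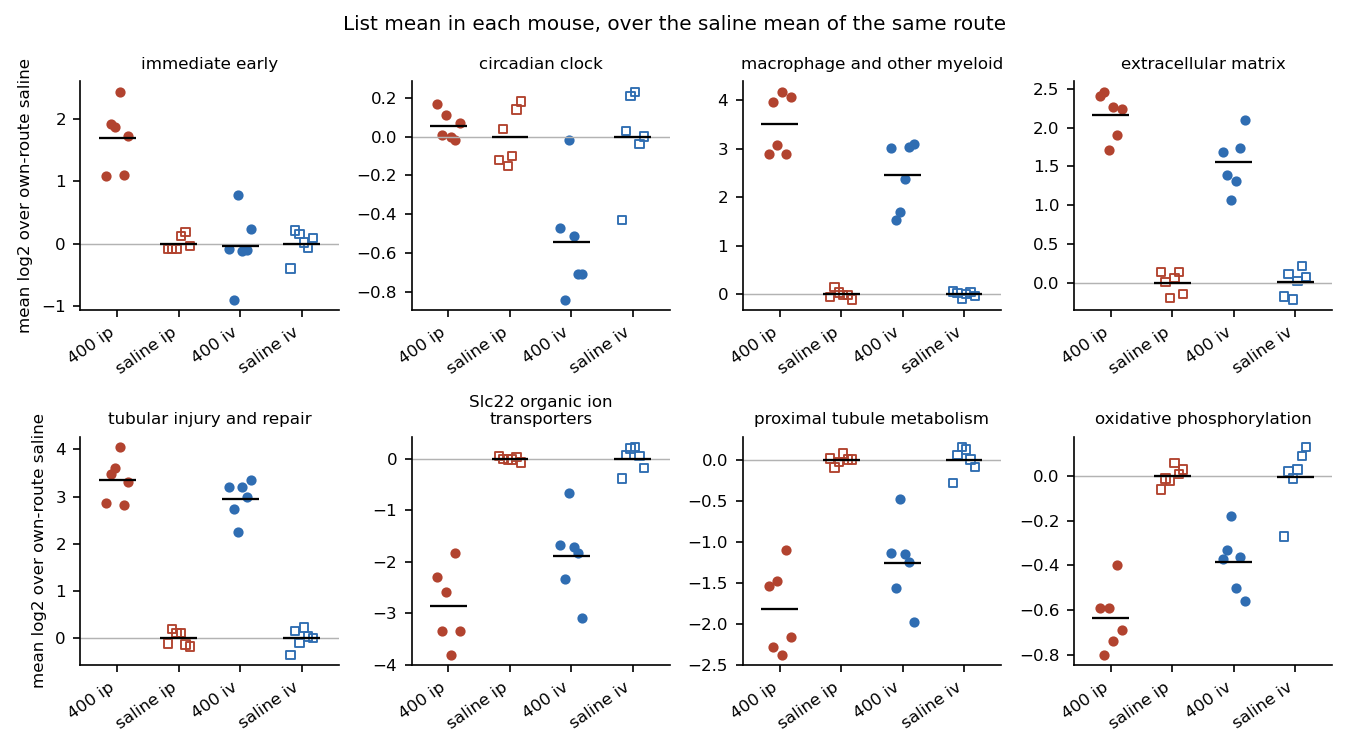
Mean log2 level of 8 gene lists in each mouse over the saline mean of the same route, with filled circles for 400 mg/kg, open squares for saline, red for ip and blue for iv, and bars at group means. For the immediate early list the ip mice at 400 mg/kg (1.09 to 2.44) lie above the iv mice (-0.90 to 0.79), and for the myeloid, matrix, injury and transporter lists the 2 sets of mice overlap.

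Other immune cell lists were thin in the named stretches. Tnfrsf13b, the receptor TACI of B lineage cells, had 4.04 to 4.82 at 400 mg/kg ip with a median of 4.71, 2.19 to 2.27 in saline ip, 2.24 to 3.98 at 400 mg/kg iv with a median of 2.78 and 2.18 to 2.29 in saline iv. The 400 mg/kg groups did not overlap and the route difference was 1.58 ± 0.23 (SE, limma adjusted p = 1.2e-05), the only call among 5 B and plasma cell genes, against 2.94% of all genes. Of its 24 levels in these 4 groups only those of the 6 ip mice and 1 iv mouse at 400 mg/kg exceeded 3.47, so it passed the filter through the group where it was high, and the size of the difference is set against levels not told from background. Fpr2, a receptor for formyl peptides on neutrophils and monocytes, rose by 4.43 by ip and by 2.37 by iv, and differed by 2.06 (adjusted p = 0.0081). It was 1 of only 2 neutrophil genes tested. Of 4 T and NK lymphocyte genes 0 passed by limma (2 at an unadjusted p under 0.05).

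Inflammatory and interferon genes differed in few members. Of 33 inflammatory signal genes 4 had the higher ip effect (Ptgs2, Cebpb, Nfkbiz and Relb), against 2.94% of all genes, and 0 the lower, with a median of 0.63, which was 0.03 under a common interquartile range and -0.08 with the iv effect scaled. Nfkbiz, a nuclear regulator of NF-kB, stood at 10.25 to 11.35 at 400 mg/kg ip and 9.15 to 10.24 at 400 mg/kg iv without overlap, against saline medians of 7.13 by ip and 8.15 by iv. Its route difference was 2.01 ± 0.37 (limma adjusted p = 5.2e-04), and 0.40 against 50 mg/kg (adjusted p = 0.61). Relb, a subunit of NF-kB, differed by 1.31 (adjusted p = 0.020). Its saline levels, 2.47 to 2.60 by ip and 2.69 to 3.76 by iv, lay mostly under 3.47, so the size of its difference is approximate. The Relb call was lost when levels under the table median were raised to it and after quantile normalization. It was also lost under a common interquartile range and with the iv effect scaled (adjusted p = 0.74). Of 41 interferon and antigen presentation genes the chemokine Cxcl9 (1.51, adjusted p = 0.046) and Ifitm1 (1.32, adjusted p = 0.041) passed, both higher, against 2.94% of all genes. Their calls held in 6 and 13 of 24 fits that left out 1 mouse (adjusted p up to 0.13 without 400 mg/kg ip mouse 104 and up to 0.085 without saline ip mouse 66). The median of that list, 0.19, became -0.17 under a common interquartile range and -0.27 with the iv effect scaled.

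Of 34 matrix genes 3 passed, all with the higher ip effect, against 2.94% of all genes, 30 differences were above 0 and the median was 0.57. After quantile normalization 1 passed (median 0.48), under a common median and interquartile range 1 (median 0.23) and with the iv effect scaled 0 by limma (median 0.15, with 5 at an unadjusted p under 0.05). Vcan, the proteoglycan versican, had levels of 5.43, 6.65 and 6.89 at 400 mg/kg ip, 2.43, 2.51 and 2.60 in saline ip, 3.04, 4.80 and 5.74 at 400 mg/kg iv and 2.50, 2.61 and 2.84 in saline iv (lowest, median and highest). Only 1 ip mouse lay within the range of the iv mice, and the route difference was 1.87 ± 0.33 (SE, limma adjusted p = 4.2e-04), with 1.90 against 50 mg/kg (adjusted p = 4.7e-04). Mmp3, a matrix protease, differed by 1.06 (adjusted p = 0.020) and Fbln2, the matrix protein fibulin 2, by 1.23 (adjusted p = 0.041). Saline levels reached at most 2.84 for Vcan, 2.76 for Mmp3 and 2.79 for Fbln2, under the table median. Among the mice compared, only some at 400 mg/kg exceeded that median, so within these groups all of these genes met the filter through 400 mg/kg mice. The sizes of their differences are approximate. The calls on Mmp3 and Fbln2 were both lost when levels under the table median were raised to it. The call on Fbln2 held in 6 of 24 fits that left out 1 mouse (adjusted p up to 0.099 without 400 mg/kg ip mouse 108), and a second probe set of Vcan gave 0.75 (adjusted p = 0.15). Pdgfra, the growth factor receptor of fibroblasts, had 9.06 to 9.73 at 400 mg/kg ip and 7.52 to 8.59 at 400 mg/kg iv, without overlap, and a difference of 1.13 (adjusted p = 0.012). Col1a1, the main collagen of scar tissue, rose by 6.17 by ip and by 5.26 by iv, and its difference of 0.90 ± 0.60 did not pass (adjusted p = 0.42).

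Tubular injury genes had a median ip effect of 3.26 and a median iv effect of 3.29. Of 27 tested, Cd44 alone passed, with the higher ip effect, against 2.94% of all genes. The median route difference was 0.16, which turned to -0.33 under a common interquartile range and -0.38 with the iv effect scaled. Cd44, an adhesion receptor of injured tubules and of leukocytes, had 8.76, 9.82 and 10.57 at 400 mg/kg ip, 2.88, 2.96 and 3.03 in saline ip, 6.89, 8.22 and 8.85 at 400 mg/kg iv and 2.55, 2.77 and 3.09 in saline iv. The 400 mg/kg groups overlapped at the edge, and the difference was 1.61 ± 0.46 (limma adjusted p = 0.035), a call kept in 14 of 24 fits that left out 1 mouse (adjusted p up to 0.086 without 400 mg/kg iv mouse 45). A second probe set of Cd44 gave 2.04 (adjusted p = 0.0088). Havcr1, or KIM-1, the injury marker of the proximal tubule, had medians of 13.36 at 400 mg/kg ip, 10.12 in saline ip, 13.21 at 400 mg/kg iv and 9.74 in saline iv, a difference of -0.30 ± 0.59 (adjusted p = 0.84). Clu, the chaperone clusterin, had medians of 14.03, 10.55, 14.24 and 10.19 in that order and a difference of -0.58 ± 0.47 (adjusted p = 0.52). Krt20, an epithelial keratin, rose by 6.63 by ip and by 6.19 by iv. Its difference of 0.44 ± 0.69 did not pass (adjusted p = 0.80).

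Cell cycle genes differed little, with 1 of 53 past the threshold, against 4.31% of all genes. Their median was 0.07, which was -0.13 after quantile normalization, -0.23 under a common interquartile range and -0.42 with the iv effect scaled. The 1 call was Cks2, a cyclin-dependent kinase subunit, which had the lower ip effect (-0.77, limma adjusted p = 0.033, up to 0.081 without 400 mg/kg ip mouse 106). Mki67, the proliferation marker, rose by 5.64 by ip and by 4.49 by iv, and its difference of 1.14 ± 0.57 did not pass (adjusted p = 0.26). Cdkn1a, the cell cycle inhibitor p21, differed by 0.59 ± 0.44 (adjusted p = 0.48). A second probe set of Cdkn1a gave 1.35 ± 0.30 (limma adjusted p = 0.0055). Its mean level over all arrays was 2.54, under 3.47, so the size of that difference is approximate.

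On the downward side the Slc22 family of organic ion transporters moved furthest as a list. These carriers take drugs, urate and other organic ions across the membranes of proximal tubule cells. Of 10 tested 2 passed, both with the lower ip effect, against 1.37% of all genes, 0 of 10 differences were above 0 and the median was -0.90. Against 50 mg/kg 3 passed, against 1.08% of all genes, and the median was -1.13. With the iv effect scaled 0 passed by limma (2 at an unadjusted p under 0.05) and the median was -0.37.

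Slc22a12 encodes the urate exchanger URAT1 of the brush border. Its lowest, median and highest levels were 7.95, 9.32 and 9.99 at 400 mg/kg ip, 11.80, 11.93 and 12.06 in saline ip, 9.83, 10.35 and 10.61 at 400 mg/kg iv and 11.40, 11.73 and 11.89 in saline iv. At 400 mg/kg 1 ip mouse reached the range of the iv mice, and the saline groups overlapped. It fell by 2.73 by ip and by 1.38 by iv, a route difference of -1.35 ± 0.26 (SE, limma adjusted p = 7.1e-04), and of -1.63 against 50 mg/kg (adjusted p = 8.7e-05). The call held without each of the 24 mice and ended when the iv effect was scaled (-0.94, adjusted p = 0.13).

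Slc22a6, the basolateral organic anion transporter OAT1, had levels of 6.09 to 9.53 at 400 mg/kg ip with a median of 7.77, 10.50 to 10.90 in saline ip, 8.41 to 9.99 at 400 mg/kg iv with a median of 9.38, and 10.25 to 10.91 in saline iv. The 400 mg/kg ip mice spread over more than 3 log2 units and overlapped the iv mice, and the route difference was -1.55 ± 0.43 (limma adjusted p = 0.030). That call held in 19 of 24 fits that left out 1 mouse, with adjusted p up to 0.077 without 400 mg/kg ip mouse 108. The Slc22a6 call was lost under a common median and interquartile range and with only the 4 groups fitted. It was also lost with the iv effect scaled (adjusted p = 0.32). The SE draws on the spread in all 8 groups, and the saline mice spread less than the 400 mg/kg ip mice. Slc22a8, or OAT3, fell by 4.76 by ip and by 3.13 by iv, and its difference of -1.63 ± 0.60 did not pass (adjusted p = 0.12). Slc22a18 fell by 3.15 and by 2.24, a difference of -0.91 (adjusted p = 0.10). Mean level of the 10 genes over saline was -3.81 to -1.83 in the ip mice, median -2.96, and -3.09 to -0.67 in the iv mice, median -1.78, so that the groups overlapped. The iv mouse nearest to saline was mouse 45, which also had the highest immediate early mean of its group (0.79), and the ip mouse nearest to saline was mouse 107.

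Of 33 other proximal tubule genes of transport and brush border 3 passed, all with the lower ip effect, against 1.37% of all genes, and the median was -0.55. With the iv effect scaled 0 passed by limma (2 at an unadjusted p under 0.05) and the median was -0.20. The 3 called were Slc17a3, a phosphate and urate transporter (-1.05, limma adjusted p = 0.039), Slc7a8, an amino acid exchanger (-0.95, adjusted p = 0.048), and Ace, the angiotensin-converting enzyme (-0.74, adjusted p = 0.037), and the calls held in 13, 7 and 13 of 24 fits that left out 1 mouse, with adjusted p up to 0.10, 0.12 and 0.093 (without 400 mg/kg ip mouse 104, 400 mg/kg iv mouse 45 and ip mouse 104). Slc34a1, the main phosphate transporter, fell by 2.85 by ip and by 2.00 by iv and did not pass (-0.84 ± 0.44, adjusted p = 0.27), nor did the endocytic receptors Lrp2, megalin, and Cubn, cubilin (-0.71 each, adjusted p = 0.23 and 0.19).

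Of 34 genes of proximal tubule metabolism 3 had the lower and 1 the higher ip effect, against 1.37% and 2.94% of all genes. The median was -0.61, and with the iv effect scaled 0 passed by limma (2 at an unadjusted p under 0.05) with a median of -0.26. Ddc, which makes dopamine, had medians of 8.84 at 400 mg/kg ip, 11.62 in saline ip, 8.63 at 400 mg/kg iv and 10.39 in saline iv. The saline groups did not overlap and the 400 mg/kg groups did, and the difference of -1.09 ± 0.26 (limma adjusted p = 0.0098) came with an ip level that was 0.25 higher at 400 mg/kg and 1.34 higher in saline. Akr1c20, an aldo-keto reductase, fell by 3.82 by ip and by 2.28 by iv (-1.54, adjusted p = 0.014), and Odc1 of polyamine synthesis differed by -0.80 (adjusted p = 0.044, up to 0.10 without 400 mg/kg ip mouse 108). The 1 gene with the higher ip effect was Cyp7b1, which hydroxylates oxysterols and rose by 3.44 by ip and by 2.19 by iv (1.25, adjusted p = 0.018).

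Of 30 glutathione and antioxidant genes 3 passed, all with the lower ip effect, of 42 genes of oxidative phosphorylation 1 and of 37 of fatty acid oxidation 1, against 1.37% of all genes, and with the iv effect scaled 0 of each list passed by limma (8, 3 and 3 at an unadjusted p under 0.05). Gsta2, a glutathione transferase, had levels of 9.77, 11.01 and 11.99 at 400 mg/kg ip, 13.56, 13.94 and 14 (rounded) in saline ip, 11.25, 11.88 and 12.61 at 400 mg/kg iv and 13.31, 13.37 and 13.55 in saline iv. All 400 mg/kg mice lay under all saline mice of their route, and the route difference was -1.48 ± 0.30 (limma adjusted p = 0.0018). Txn2, the mitochondrial thioredoxin (-0.67, adjusted p = 0.039), and the glutathione transferase Gstm5 (-0.52, adjusted p = 0.041), with adjusted p up to 0.10 and 0.11 without 400 mg/kg ip mouse 104, were the other antioxidant calls, and the median of that list was -0.29, and Gclc of glutathione synthesis did not pass (-0.02 ± 0.34, adjusted p = 0.98). Rdh5, a retinol dehydrogenase, fell by 2.59 by ip and by 1.23 by iv (-1.36, adjusted p = 0.0011), and Fmo1, a flavin monooxygenase, fell by 2.02 and by 0.90 (-1.12, adjusted p = 0.0042). Of the oxidative phosphorylation genes 3 had differences above 0, the median was -0.26, and the call was Atp5d of ATP synthase (-0.49, adjusted p just under 0.05 and up to 0.12 without 400 mg/kg iv mouse 45). The fatty acid oxidation call was Acot8, a peroxisomal thioesterase (-0.73, adjusted p = 0.011), and the median was -0.40.

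Fam220a fell by 1.32 by ip and had an iv effect of 0.18, while Slc25a37 fell by 0.75 by ip and rose by 0.49 by iv. Fam220a had medians of 5.84 at 400 mg/kg ip, 7.28 in saline ip, 6.63 at 400 mg/kg iv and 6.56 in saline iv, and a route difference of -1.51 ± 0.32 (SE, limma adjusted p = 0.0025). Slc25a37, mitoferrin 1 of mitochondrial iron import, had medians of 8.28, 9.07, 8.40 and 8.10 in that order and a difference of -1.24 ± 0.28 (adjusted p = 0.0057). Neither passed against 50 mg/kg (adjusted p = 0.17 and 0.44). Fech, the last enzyme of heme synthesis, differed by -0.83 (adjusted p = 0.0088) and was the only call among 8 red blood cell genes, against 1.37% of all genes.

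Outside the proximal tubule single genes differed. Nphs1, nephrin of the podocyte slit diaphragm, had medians of 5.16 at 400 mg/kg ip, 6.06 in saline ip, 5.29 at 400 mg/kg iv and 5.39 in saline iv. Saline ip stood alone above the rest, and the difference was -0.96 ± 0.24 (limma adjusted p = 0.011). Foxc2, another podocyte gene, had the higher ip effect (1.02, adjusted p = 0.029, up to 0.072 without 400 mg/kg ip mouse 106). The 21 podocyte genes had 1 call in each direction, against 2.94% higher and 1.37% lower over all genes, and a median of -0.11. Of 21 collecting duct genes 2 passed, against 2.94% of all genes: Dmrt2 (1.51, adjusted p = 0.0046) and P2ry14 (1.42, adjusted p = 0.018), genes of intercalated cells. Against 50 mg/kg neither passed (0.14 with adjusted p = 0.88 for Dmrt2, and 0.73 with adjusted p = 0.31 for P2ry14). Aqp2, the water channel of principal cells, did not pass (0.66 ± 0.42, adjusted p = 0.39). Of 22 endothelial genes 0 passed by limma (3 at an unadjusted p under 0.05) and of 23 of the loop and distal tubule 0 passed (4 unadjusted), and their medians were 0.11 and -0.11, which turned to -0.01 for endothelium after quantile normalization and to 0.03 for the distal list with the iv effect scaled.

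**Figure D4:**
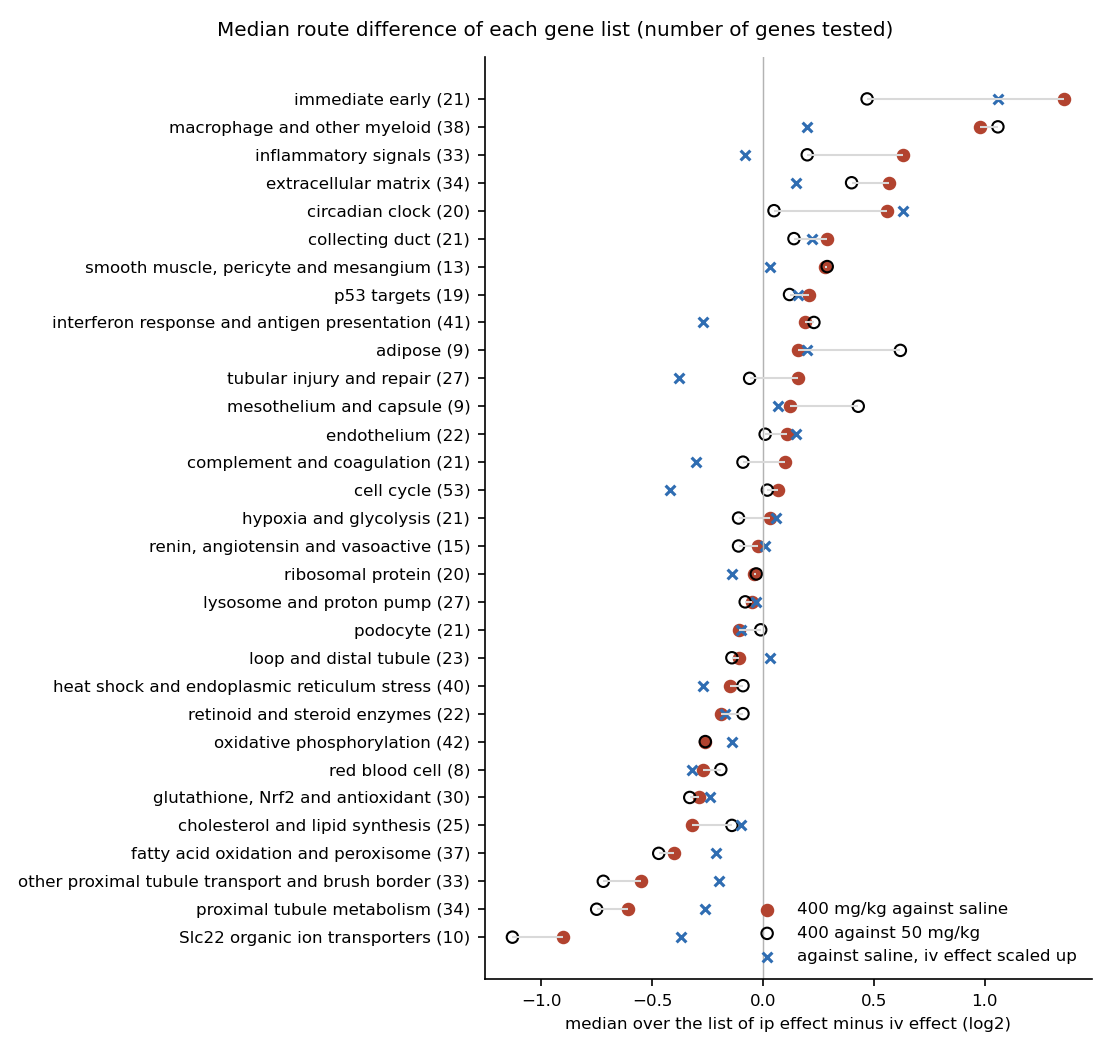
Median route difference (ip effect minus iv effect, log2, horizontal axis) of each gene list with at least 8 tested genes, for 400 mg/kg against saline (red), for 400 against 50 mg/kg (open) and against saline with the iv effect multiplied by 1.30 (blue crosses). The immediate early median goes to 0.47 and the circadian median to 0.05 against 50 mg/kg, while the myeloid median stays near 1 (1.06) and comes to 0.20 with the iv effect scaled.

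The route difference at 400 mg/kg was set against that at 200 mg/kg, where the iv route had the larger effect on several injury genes. The 2 interactions have the saline mice in common, and the test of their difference, which needs none of those mice, passed in 1190 of 5748 genes (20.7%, with 12.9% higher and 7.81% lower). The interaction at 200 mg/kg passed in 56 genes (0.974%, with 0.313% higher and 0.661% lower). Clu by ip averaged 10.48 in saline, 10.34 at 50, 10.66 at 200 and 14.04 at 400 mg/kg, and by iv 10.06, 10.16, 13.07 and 14.21. The route difference of Clu was -2.83 at 200 mg/kg (limma adjusted p = 4.2e-04) and -0.58 at 400 mg/kg, a change of 2.25 (adjusted p = 6.2e-04).

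Of the 248 genes called at 400 mg/kg, 211 passed for 400 against 200 mg/kg in the same direction and 37 did not pass, in tests that share the 400 mg/kg arrays. Among the largest that did not pass were Nr4a1 (0.43, limma adjusted p = 0.64), Csrnp1 (0.61, adjusted p = 0.24), Ciart (-0.21, adjusted p = 0.82) and Plk3 (0.80, adjusted p = 0.37). Fos (3.05, adjusted p = 0.028) and Egr1 (2.93, adjusted p = 0.0075) passed. Of the 21 immediate early genes tested for 400 against 200 mg/kg, 10 passed higher and 0 lower, against 12.9% and 7.81% of all genes. Ccr2 by ip averaged 3.13, 3.22, 3.26 and 8.47 with rising dose and by iv 3.66, 3.69, 5.28 and 6.87, and its route difference changed by 3.62 between 200 and 400 mg/kg (limma adjusted p = 7.8e-07). Cd44 changed by 3.00 (adjusted p = 1.3e-05). Col1a1, which was not called at 400 mg/kg, changed by 3.36 (adjusted p = 9.3e-05). Slc22a12 by ip averaged 11.93, 12.00, 12.00 and 9.20 and by iv 11.68, 11.47, 10.92 and 10.30, a change of -2.18 (adjusted p = 2.0e-07). Slc22a6 changed by -2.34 (adjusted p = 1.3e-04). By ip the means of Ccr2 and Slc22a12 at 200 mg/kg lay near those in saline, and by iv they had moved. The list median of tubular injury was -1.40 at 200 mg/kg and 0.16 at 400 mg/kg, and that of the Slc22 genes 0.83 and -0.90.

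**Figure D5:**
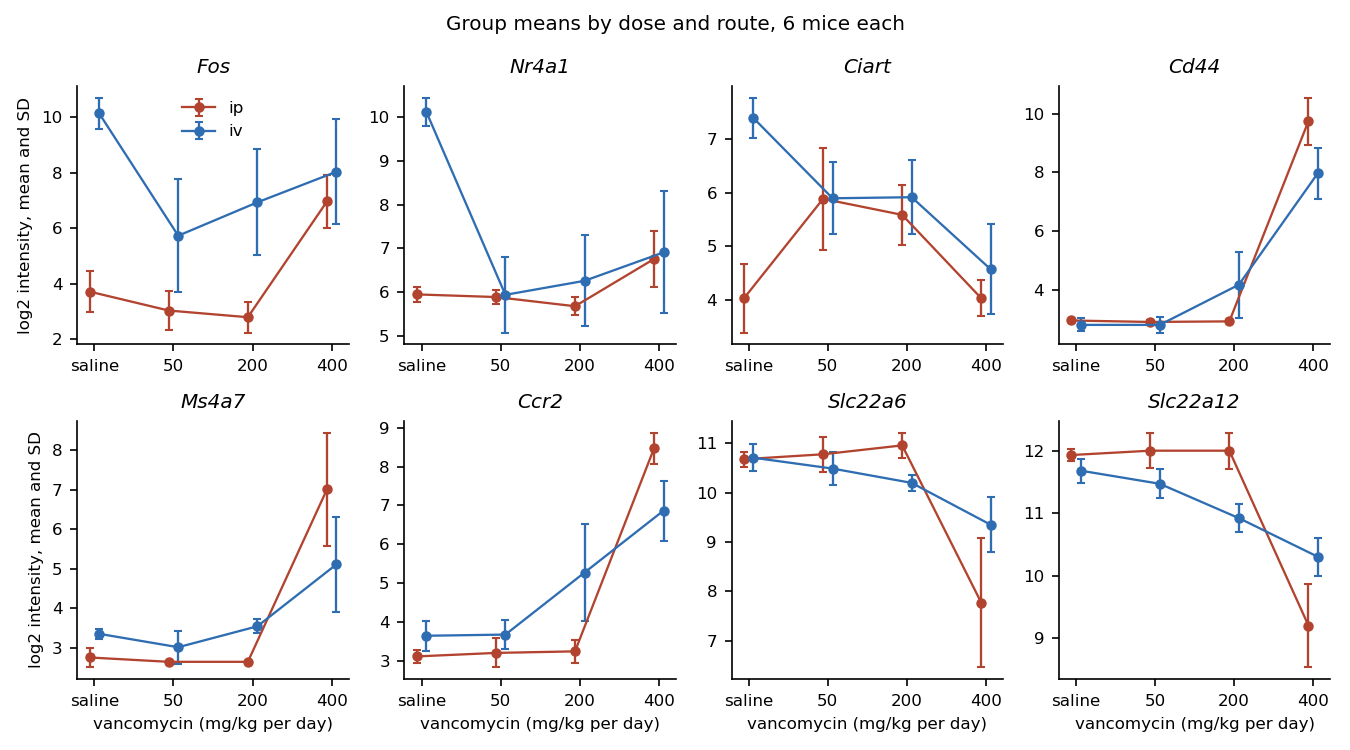
Mean level (log2 intensity, with SD over 6 mice) of 8 genes against dose for ip (red) and iv (blue), with doses equally spaced. Saline iv is the highest group for Fos, Nr4a1 and Ciart, and for Cd44, Ms4a7, Ccr2, Slc22a6 and Slc22a12 the ip mean lies near saline at 200 mg/kg and beyond the iv mean at 400 mg/kg.

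With 1 mouse left out of the 24 the count ran from 148 to 530. It was 148 without ip mouse 104, 150 without ip mouse 108, 153 without iv mouse 44 and 158 without iv mouse 45, and 463 without iv mouse 48 and 530 without ip mouse 107, all from the 400 mg/kg groups. Without the arrays of interquartile range under 3.5, a choice made after seeing the data, it was 328. The median SD between mice over all genes was 0.26 at 400 mg/kg ip, 0.17 in saline ip, 0.29 at 400 mg/kg iv and 0.27 in saline iv. Of the 248 called genes 36 had more than 1 kept probe set, and in 30 of these all had the same sign.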

How the data were processed

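Kidney RNA of 48 mice was measured on single-colour Affymetrix mouse arrays, 1 mouse per array. The intensity values are those the authors deposited in the series matrix, summarised with GCRMA per the submitters' processing notes; they ran from 1.78 to 63594, and log2 was taken here from these deposited values. GCRMA joins background correction and quantile scaling, but the arrays of the routes kept different spreads (interquartile range 4.33 to 4.75 by ip and 3.37 to 4.10 by iv), so alternative scalings were run. Arrays carry no read depth, and their number limits the precision.

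The probe set IDs are not in step with the values. Names were given by a shift of position in 3 stretches (11000 probe sets, 10198 named), which is a reconstruction. Within them, probe sets of the same gene had a mean correlation of their group profiles of 0.669 (1268 pairs), against 0.342 (1086 pairs) for the same positions as listed. In 23 of 23 windows of up to 500 positions the stated shift gave a higher mean correlation (0.55 to 0.78) than any other within 3 positions (0.28 to 0.53). All other probe sets are unnamed here.

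Probe sets were kept where log2 exceeded the table median of 3.47 in at least 6 arrays, and a gene was represented by its kept probe set of highest mean. Contrasts were fitted with limma 3.58.1 (R 4.3.3; lmFit over all 8 groups, eBayes with a trend) and Benjamini-Hochberg adjustment over 5748 genes at 0.05. On simulated data the fit recovered 74% of 100 genes changed by 1 log2 unit and 95% of 100 changed by 2. Summaries used Python 3.11.15, pandas 2.3.3 and numpy 2.4.6, and figures matplotlib 3.10.9. Promoter windows came from RefSeq. The mice were taken as independent, and nothing in the labels gives a scan or extraction batch.

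Genes were named by a rule: the 12 largest called differences in each direction with a group mean above 3.47, up to 4 members of smallest p in each of 36 lists, and 26 genes for inspection, of which 22 were tested. The members and lists were chosen with earlier results of these data known. Alternatives covered scaling, filters, the groups fitted, array weights, a residual covariate, the representative probe set, scaling of the iv effect and leaving out each mouse.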

Additional observations from a re-analysis of the deposited data

Results flagged for a closer look

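The genes listed here are the 12 largest differences in each direction among genes with a group mean above 3.47 that passed the test of the difference between the routes (limma adjusted p under 0.05), so that passing was part of their choice. Larger differences that did not pass exist, such as -1.63 for Slc22a8 (adjusted p = 0.12). The ip effect exceeded the iv effect, in log2 units, by 5.34 for Fos, 4.49 for Egr1, 4.03 for Nr4a1, 3.58 for Rasd1, 3.05 for Csrnp1, 2.83 for Ciart, 2.71 for Gem, 2.49 for Ms4a7, 2.45 for Ptgs2, 2.43 for Slfn4, 2.35 for Plk3 and 2.29 for Cebpb. The ip effect minus the iv effect was -1.55 for Slc22a6, -1.54 for Akr1c20, -1.51 for Fam220a, -1.48 for Gsta2, -1.36 for Rdh5, -1.35 for Slc22a12, -1.24 for Slc25a37, -1.20 for Cgref1, -1.19 for Mfsd4b5, -1.19 for Arntl, -1.15 for F5 and -1.12 for Fmo1. The call on Slfn4 held in 5 of 24 fits that left out 1 mouse, with adjusted p up to 0.12 without 400 mg/kg ip mouse 104. That on Mfsd4b5 held in 9 of 24 such fits, with adjusted p up to 0.13 without the same mouse.

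Of 160 sets of 6 mice examined, 12 held a mouse far from the others by Dixon's test, and chance flags about 1 in 20 such sets. Among 400 mg/kg ip mice, Akr1c20 was highest in mouse 107 (5.46, with the nearest at 3.94) and Slc22a12 lowest in mouse 106 (7.95, nearest 9.24). In saline ip, mouse 62 was highest for Nr4a1 (6.29, nearest 5.94), Gem (5.87, nearest 3.79) and Ms4a7 (3.26, nearest 2.66), and mouse 64 was highest for Plk3 (5.61, nearest 3.69) and Cebpb (8.33, nearest 7.35). In saline iv, mouse 1 was lowest for Cgref1 (10.08, nearest 10.77) and Clu (9.05, nearest 10.05), mouse 2 for Nphs1 (4.73, nearest 5.32), mouse 4 for Egr1 (10.14, nearest 10.80) and mouse 5 for Ms4a7 (3.09, nearest 3.37).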

How the results depend on the processing

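The direction of the route interaction at 400 mg/kg held for most named genes, while the number of calls varied. Against 248 genes, limma called 126 under a common median and interquartile range, 96 with a stricter filter, 76 with only the 4 groups fitted, 643 with array weights, 488 with the first residual component as covariate, 53 with the iv effect scaled and 1331 of 24930 over all probe sets, named or not. Leaving out 1 mouse gave 148 to 530. Of the 248 genes, 155 were also called after quantile normalization and 94 under a common interquartile range. Quantile normalization called 1344 genes between the saline groups (3316 otherwise) and 104 for 400 against 50 mg/kg (160 otherwise), for which a common interquartile range, added after seeing the data, called 19. Without a filter 31 genes were called at 200 mg/kg (56 otherwise).

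The sign turned only in genes that did not pass: Havcr1 was 0.07 after quantile normalization, Krt20 -0.50 under a common interquartile range and -1.41 with the iv effect scaled, Col1a1 -0.00 and -0.67 in the same order, and Mki67 -0.20 with the iv effect scaled. Gclc was 0.09 after quantile normalization, 0.11 with array weights, 0.13 without the arrays of narrow range (added after seeing the data) and -0.17 to 0.13 with 1 mouse left out. Umod was 0.01 with array weights, 0.07 with the iv effect scaled and -0.06 to 0.05 with 1 mouse left out. Over the settings other than left-out mice, named genes kept direction and side of the threshold in 834 values, lost the call in 172, gained it in 3 and turned in 11. The causes were not tested. No paired analysis was possible because every mouse has a number of its own. Names rest on the shift of position, 6 mice a group limit precision, and levels under 3.47 are not told from background.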

Other observations

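Genes of complement and coagulation, which is a mixed set of liver-type, macrophage and vessel genes, differed in both directions. Of 21 tested, 2 had the higher ip effect and 3 the lower, against 2.94% and 1.37% of all genes. The median was 0.10, which was -0.22 under a common interquartile range and -0.30 with the iv effect scaled. The higher ones were Itgam (1.76) and C1qb (1.34), which the myeloid list also holds. The lower ones included F5, coagulation factor V (-1.15, limma adjusted p = 0.030), and Tfpi2, an inhibitor of tissue factor (-1.05, adjusted p = 0.0030). The F5 levels at 400 mg/kg ip (2.33 to 3.29) lay under 3.47, so the size of its difference is approximate. Its call held in 18 of 24 fits that left out 1 mouse (adjusted p up to 0.071 without 400 mg/kg iv mouse 45). The F5 call was lost when levels under the table median were raised to it.

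Several stress and housekeeping lists gave few or no calls by limma, where 4.31% of all genes passed. Of 40 genes of heat shock and endoplasmic reticulum stress 0 passed (5 at an unadjusted p under 0.05), with a median of -0.15. Of 25 genes of cholesterol and lipid synthesis 0 passed (4 unadjusted), with a median of -0.32. Of 20 ribosomal protein genes 0 passed (1 unadjusted), with a median of -0.04, and of 27 lysosome genes 0 passed (3 unadjusted), with a median of -0.05. Lists for mesothelium and adipose tissue had 0 of 9 calls each (2 and 0 unadjusted), with medians of 0.12 and 0.16. Of 21 genes of hypoxia and glycolysis 1 passed, Pgk1 of glycolysis (-0.47, adjusted p = 0.048), against 1.37% of all genes with the lower ip effect. The Pgk1 call held in 6 of 24 fits that left out 1 mouse (adjusted p up to 0.11 without 400 mg/kg ip mouse 104). Of 19 p53 targets Plk2 and Plk3 passed, both higher, against 2.94% of all genes, and the immediate early list also holds them.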
